A study of Arabidopsis thaliana with 41 samples.

Results

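WRKY proteins are plant transcription factors that bind W-box elements in promoters through a WRKY domain, a conserved fold closed by a zinc finger. Subgroup I proteins carry a pair of such domains, the subgroup II proteins 1 domain with the same kind of finger, and subgroup III proteins 1 domain with a different finger. In leaves they are best known as relays of immune signalling, often downstream of mitogen-activated protein kinases and salicylic acid, and several members also act in leaf senescence, phosphate supply and abscisic acid responses. The family was taken as 57 loci named by locus identifier, and 52 of them were among the 21164 loci measured. WRKY29, WRKY41, WRKY49, WRKY50 and WRKY51 are not analysed here. Of the measured members 11 belong to subgroup I, 3 to IIa, 8 to IIb, 10 to IIc, 6 to IId, 7 to IIe and 7 to III.

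Rosette leaves of 7 natural accessions of Arabidopsis thaliana, each grown at 2 soil water levels, were profiled on 41 arrays. The accessions were Ag-0, Bil-5, Eden-1, Got-22 and Omo2-3, together with Tamm-2 and Ull2-5. Dry pots, with 1 plant each, were lowered day by day to about 50% water remaining on day 5, and wet control pots stayed near 90%. Both sets shared a ceramic rooting medium, a 10 h photoperiod and 23 °C days with 18 °C nights, per the labels. There were 20 dry and 21 wet arrays in 14 groups, 3 per group but for the dry plants of Ag-0, which had 2. The design addresses the response to soil drying, the differences among accessions, and whether accessions differ in that response. All values are log2 array signals.

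Array medians lay between 5.66 and 5.79, and 3 arrays had a limma quality weight under 0.5 (Bil-5 wet replicate 2 and the third dry replicates of Bil-5 and Tamm-2). The leaf marker CA1, a chloroplast carbonic anhydrase gene and the 1 mesophyll marker of 4 that was measured, had a mean signal of 9.98, while 5 root markers averaged between 4.19 and 5.11, 3 pollen markers between 4.05 and 4.72 and 3 seed storage genes between 3.92 and 4.10. Mean signals of the 52 members ran from 3.73 (WRKY43) to 11.45 (WRKY40); probes differ in affinity, so these values do not rank the genes. A total of 11 members lay in the lowest 25% of loci, at or below 4.40, where a fall can hardly be seen. They were WRKY9, WRKY14, WRKY27, WRKY28, WRKY31, WRKY35, WRKY36, WRKY42, WRKY43, WRKY44 and WRKY61.

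Under soil drying, falls outnumbered rises among the WRKY genes. The mean change over the 7 accessions was a significant fall for 15 of 52 members (28.8%) and a significant rise for 1 (1.92%), by limma at an adjusted p under 0.05. The same test called 11.5% of all loci as fallen and 12.2% as risen. Among members above the lowest 25% of signal, 14 of 41 fell (34.1%), against 14.4% of all loci above it. The median change of the members was -0.08, and that of all loci -0.00019. Of the 15 members that fell, 10 were lower in each of the 7 accessions; such loci made up 54.8% of all that fell and 6.32% of all tested. In whole leaves, fewer cells of a type and less RNA per cell cannot be told apart. The phloem markers SUC2 and APL fell by 0.32 and 0.34 and the guard cell lineage factor gene FAMA by 0.15 (limma adjusted p = 0.00971, 0.00286 and 0.00812), while the guard cell genes MYB60 and KAT1 and the root, pollen and seed markers did not pass; the part of these cell types in the WRKY changes was not tested. SUC2 averaged 9.99 ± 0.37 (SD, n = 20) on dry and 10.32 ± 0.37 (SD, n = 21) on wet arrays, and APL 5.24 ± 0.26 and 5.59 ± 0.31.

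**Figure D1:**
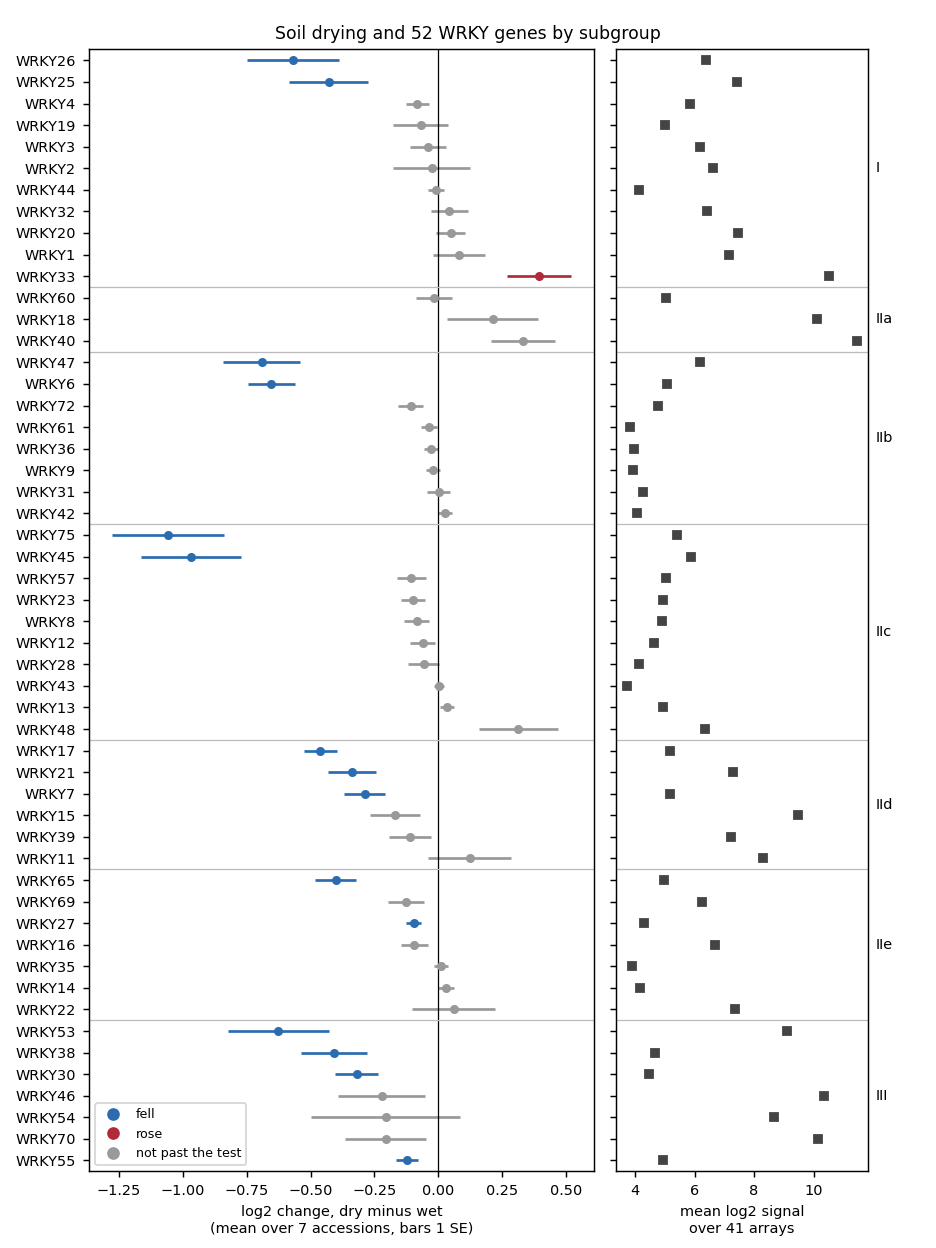
Drying change of each of the 52 measured WRKY genes (left, log2 signal dry minus wet as the mean over 7 accessions, bars 1 SE) and mean log2 signal over 41 arrays (right), ordered by subgroup. Blue points fell (15), the red point rose (WRKY33) and grey points did not pass limma's test; the falls reach -1.06 in WRKY75.

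The most extreme falls were those of WRKY75 (AT5G13080) and WRKY45 (AT3G01970), subgroup IIc factors that promote phosphate uptake; WRKY75 also promotes leaf senescence and limits root hair growth. WRKY75 ranged from 4.14 through a median of 4.48 to 6.99 on the 20 dry arrays and from 4.42 through 5.71 to 8.59 on the 21 wet arrays. Both groups overlapped over the whole set, and all dry arrays lay below all wet arrays in 3 accessions, Omo2-3, Tamm-2 and Ull2-5. Its change was -1.06 ± 0.22 (SE), which is a 2.08-fold lower signal (limma adjusted p = 0.000648), with a lower dry mean in 7 of 7 accessions. WRKY45 ranged from 4.58 through 5.15 to 7.52 on dry and from 5.03 through 6.19 to 7.97 on wet arrays, and its groups separated in the same 3 accessions. Its change was -0.97 ± 0.19 (limma adjusted p = 0.00045), again lower in 7 of 7. Over all loci, 6.44% separated in this direction in at least 3 accessions, and 11 of the 52 members did.

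In Omo2-3 the WRKY45 values were 4.91, 4.82 and 5.18 on dry arrays against 6.52, 7.97 and 6.06 on wet arrays, a change of -1.88 ± 0.51. In Eden-1 they were 6.95, 7.52 and 6.53 against 6.26, 7.25 and 7.77, and the change was -0.09. WRKY75 differed by -1.69 ± 0.57 in Eden-1 and by -0.05 ± 0.64 in Ag-0. Dry Ag-0 arrays read 5.56 and 4.63 for WRKY75 and wet ones 4.85, 5.71 and 4.88, so these groups overlapped. None of these changes passed within an accession, and the interaction test called neither gene (limma adjusted p = 1 for WRKY75 and 0.971 for WRKY45).

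Subgroup IIb was split between 2 members that fell, beside 11.5% of all loci, and 5 whose signal lay in the lowest 25%. WRKY6 (AT1G62300), a senescence-associated factor that also represses the phosphate exporter gene PHO1, ranged from 4.44 through 4.70 to 5.37 on dry and from 4.71 through 5.37 to 6.48 on wet arrays. Within accessions its dry arrays all lay below its wet arrays in 6 of 7, with Got-22 the exception. The change was -0.65 ± 0.09 (limma adjusted p = 8.54e-06). WRKY47 (AT4G01720) ranged from 5.16 through 5.86 to 6.36 on dry and from 5.66 through 6.46 to 7.92 on wet arrays, and 4 accessions separated. It changed by -0.69 ± 0.15 (limma adjusted p = 0.00114) and was lower in 7 of 7 accessions. WRKY72, which contributes to basal immunity, differed by -0.11 ± 0.05 and did not pass (limma adjusted p = 0.115). PHO1 itself differed by -0.04 ± 0.12 (limma adjusted p = 0.853).

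Among the subgroup IId factors, which bind calmodulin, 3 of 6 fell, beside 11.5% of all loci, and 1 of these calls (WRKY17) held without any single array and accession. WRKY17 (AT2G24570), a negative regulator of basal resistance to bacteria, had dry values from 4.71 through 4.92 to 5.40 and wet values from 4.93 through 5.37 to 6.07. Its dry and wet arrays separated in 6 of 7 accessions, all but Ag-0; 2 of 52 members, WRKY6 and WRKY17, and 0.307% of all loci separated this way in at least 6. The change of WRKY17 was small but even, -0.46 ± 0.07 (limma adjusted p = 7.59e-06), with accession values between -0.65 in Tamm-2 and -0.31 in Ull2-5. WRKY21 (AT2G30590) changed by -0.34 ± 0.09 and WRKY7 (AT4G24240) by -0.29 ± 0.08, and WRKY7 was lower in 6 of 7 accessions. WRKY11, which acts together with WRKY17, differed by 0.12 ± 0.16 (limma adjusted p = 0.658), WRKY15 by -0.17 ± 0.10 and WRKY39 by -0.11 ± 0.08, and none of these passed. Whether WRKY11 and WRKY17 differed in their change was not tested.

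**Figure D2:**
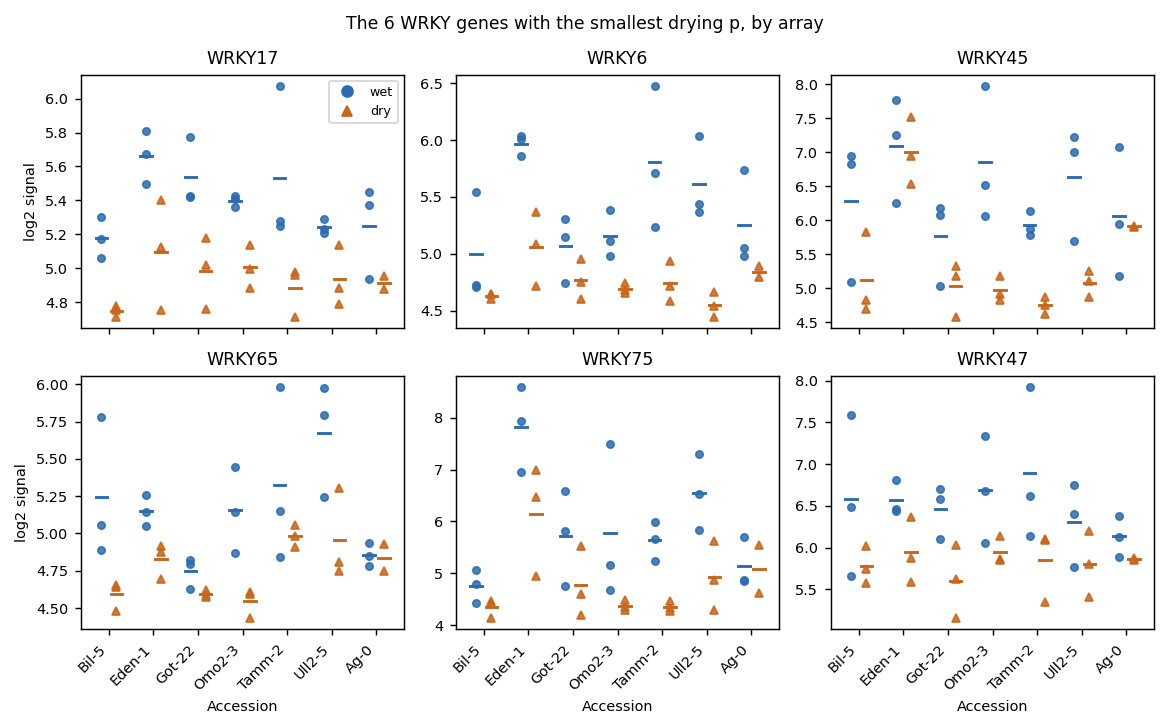
Log2 signal on each array, by accession and soil water (blue circles wet, orange triangles dry, bars group means), for the 6 WRKY genes with the smallest drying p. Dry arrays of WRKY17 and WRKY6 lie below the wet arrays in 6 of 7 accessions, while WRKY75 and WRKY45 spread widely on wet arrays.

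In subgroup III 4 of 7 members fell, beside 11.5% of all loci, and 1 of these calls (WRKY30) held without any single array and accession; subgroups were not compared by a test. WRKY53 (AT4G23810), which promotes leaf senescence, ranged from 7.11 through 8.82 to 10.35 on dry and from 7.40 through 9.50 to 10.44 on wet arrays, with strong overlap. It changed by -0.63 ± 0.20 (limma adjusted p = 0.02) and was lower in 6 of 7 accessions; the exception was Ag-0 at 0.51 ± 0.57. WRKY30 (AT5G24110) changed by -0.32 ± 0.08, WRKY38 (AT5G22570) by -0.41 ± 0.13 and WRKY55 (AT2G40740) by -0.12 ± 0.04. The WRKY30 signal was dim, averaging 4.32 on dry and 4.64 on wet arrays, close to the 4.40 that bounds the lowest 25% of loci. WRKY46, WRKY54 (AT2G40750) and WRKY70 (AT3G56400), which share roles in salicylic acid signalling and in growth under brassinosteroids, differed by -0.22 ± 0.17, -0.21 ± 0.29 and -0.21 ± 0.16 and did not pass (limma adjusted p = 0.401, 0.685 and 0.398). WRKY54 and WRKY55 are direct neighbours on chromosome 2. WRKY54 was lower on dry arrays in 2 of 7 accessions, Tamm-2 (-1.16 ± 0.76) and Ull2-5 (-1.39 ± 0.76), and WRKY55 in 6 of 7.

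In subgroup I, 8 of 11 members did not pass, beside 23.7% of all loci that did in either direction. WRKY33 (AT2G38470), the activator of camalexin synthesis and of resistance to necrotrophic fungi, was the member that rose. It ranged from 10.03 through 10.74 to 11.57 on dry arrays and from 8.95 through 10.32 to 11.31 on wet arrays, and these ranges overlapped. Its change was 0.39 ± 0.13 (limma adjusted p = 0.0213). The values were largest in Bil-5 (0.92 ± 0.33), Got-22 (0.62 ± 0.33) and Ag-0 (1.18 ± 0.37) and between -0.17 and 0.25 in the other accessions. None passed within its accession (limma adjusted p = 0.107, 0.572 and 0.142 in those named), and the interaction test did not call WRKY33 (0.863). WRKY25 (AT2G30250) and WRKY26 (AT5G07100), which act with WRKY33 in heat tolerance, changed the opposite way, by -0.43 ± 0.16 and -0.57 ± 0.18 (limma adjusted p = 0.0434 and 0.0196). WRKY26 was higher on dry arrays in Eden-1 (0.58) and Ag-0 (0.42) and lower in the other 5 accessions, down to -1.66 ± 0.47 in Tamm-2. WRKY3 (AT2G03340) and WRKY4, which protect against necrotrophs, differed by -0.04 ± 0.07 and -0.08 ± 0.05 and did not pass.

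The subgroup IIa trio of WRKY18, WRKY40 (AT1G80840) and WRKY60, which bind one another and restrain defence, gave no call, beside 23.7% of all loci. WRKY40, also a repressor of abscisic acid response genes, ranged from 10.85 through 11.65 to 12.27 on dry and from 10.12 through 11.31 to 12.20 on wet arrays. Its difference of 0.33 ± 0.13 just missed the threshold (limma adjusted p = 0.0552). WRKY18 differed by 0.21 ± 0.18 and WRKY60 by -0.02 ± 0.07. In subgroup IIe, WRKY65 (AT1G29280) changed by -0.40 ± 0.08 (limma adjusted p = 0.00051) and was lower in 7 of 7 accessions, and WRKY27 (AT5G52830), of a signal in the lowest 25%, by -0.10 ± 0.03. WRKY22, a flagellin-induced factor downstream of mitogen-activated protein kinases, differed by 0.06 ± 0.16 and did not pass. In subgroup IIc outside WRKY45 and WRKY75, 8 members did not pass, beside 23.7% of all loci that did. Their differences ran from -0.11 (WRKY57 (AT1G69310)) to 0.31 ± 0.15 (WRKY48, a repressor of bacterial resistance).

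Of the 16 drying calls, 7 held without any single array and any single accession, namely WRKY6, WRKY17, WRKY30, WRKY45, WRKY47, WRKY65 and WRKY75. The matching share of all called loci is not given, so this count is not read as a trait of the members. The count of falls was between 12 and 16 without a single array and between 10 (without Ull2-5) and 16 (without Ag-0) without an accession. Without Ull2-5 9.53% of all loci fell, and without Ag-0 11.1%, while shares for the removal of single arrays are not given. The WRKY33 call ended when Bil-5 (limma adjusted p = 0.124), Got-22 (0.063) or Ag-0 (0.096) was removed, or dry replicate 3 of Ag-0 alone (0.0776), and that of WRKY26 without dry replicate 2 of Ag-0 (0.0691), Omo2-3 (0.0852), Tamm-2 (0.156) or Ull2-5 (0.099). WRKY25 lost it without any 1 of 24 arrays (up to 0.0948, for dry replicate 2 of Ag-0) or any of 5 accessions, and WRKY55 without any of 10 arrays (up to 0.118, for the same array) or any of 5 accessions. WRKY25 also ended with quality weights (0.0536), and WRKY55 with arrays centred on their median (0.052), without the 3 arrays of low quality weight (0.0554) and with same-numbered dry and wet arrays as pairs (0.0567). That pairing ended WRKY27 too (0.0573). WRKY38 lost it without Eden-1 (-0.23, 0.259), WRKY53 without Bil-5 (0.0661), Eden-1 (0.0944) or Ull2-5 (0.0791), WRKY27 without Bil-5 (0.0952), Eden-1 (0.105) or Omo2-3 (0.0578), WRKY7 without Got-22 (0.113) or Ull2-5 (0.0553), and WRKY21 without Tamm-2 (0.0585).

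Kinases, partners and targets of WRKY factors, listed from textbook knowledge, moved in both directions. The lists were chosen with earlier results of these data known, so their shares are a description and not independent evidence. Of 8 upstream kinase genes, 3 fell (37.5%) and 1 rose (12.5%), beside 11.5% and 12.2% of all loci. MPK6 changed by -0.33 ± 0.08, MKK2 by -0.30 ± 0.08 and MKK1 by -0.50 ± 0.15, while MEKK1, at the head of the MKK1 and MKK2 branch, rose by 0.23 ± 0.07 (limma adjusted p = 0.0017, 0.00638, 0.0134 and 0.0163). MPK3 differed by 0.11 ± 0.10 and did not pass. Of 8 protein partners, 2 fell (25%). SIB2, which activates WRKY33 in resistance to necrotrophs, changed by -0.98 ± 0.17 (limma adjusted p = 9.69e-05) and JAV1, a repressor of jasmonate defence, by -0.47 ± 0.13 (0.00614). The other 6 partners did not pass, among them MKS1, which ties WRKY33 to MPK4 (0.16 ± 0.10).

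Of the 16 listed target genes of WRKY factors, 7 fell (43.8%) and 1 rose (6.25%), beside 11.5% and 12.2% of all loci. This list too was chosen with earlier results of these data known, so its shares only describe it. FRK1, a flagellin-induced receptor kinase gene and WRKY6 target, changed by -1.23 ± 0.17, from 6.24 ± 0.81 (SD, n = 21) on wet arrays to 5.02 ± 0.23 (SD, n = 20) under drying (limma adjusted p = 5.47e-06). PAD3, which encodes the last enzyme of camalexin synthesis and is activated by WRKY33, changed by -1.76 ± 0.32 (0.00015), while WRKY33 itself rose. CYP71A12, a cytochrome P450 gene of the same indole pathway, changed by -0.80 ± 0.12 (2.27e-05). ACS6, an ethylene synthesis gene and WRKY33 target, was the riser, at 0.47 ± 0.12 (0.00351). The median change of the 16 targets was -0.16.

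Within single accessions, drying calls were few. Limma called WRKY6 in Tamm-2 and in Ull2-5, WRKY17 in Tamm-2, WRKY57 in Ull2-5 and WRKY38 in Eden-1, all of them falls, and 0 members in Bil-5, Got-22, Omo2-3 and Ag-0, where 11, 5, 5 and 7 of 52 members had an unadjusted p under 0.05, as did 18.9%, 9.51%, 8.02% and 11.1% of all loci. Over all loci the test called 0.907% as fallen in Tamm-2, 0.879% in Ull2-5 and 0.203% in Eden-1, against 1.33% in Bil-5, 0.0378% in Got-22, 0% in Omo2-3 and 0.208% in Ag-0. Risen loci made up 2.86% in Bil-5, 0.529% in Ull2-5, 0.35% in Tamm-2, 0.213% in Ag-0, 0.0945% in Eden-1, 0.0567% in Got-22 and 0% in Omo2-3. Fits of each accession on its own arrays called 0 members in all 7, and between 0% and 0.132% of all loci.

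WRKY57, whose activation raises drought tolerance, stood out in Ull2-5. It read 5.03, 5.09 and 4.87 on dry and 5.61, 5.92 and 5.49 on wet arrays, which do not overlap, a change of -0.67 ± 0.15 (limma adjusted p = 0.018). In Ag-0 it read 5.19 and 5.82 on dry against 5.16, 5.03 and 4.89 on wet arrays (0.48 ± 0.16), and over all accessions the difference was -0.11 ± 0.06. WRKY6 changed by -1.06 ± 0.24 in both Tamm-2 and Ull2-5. Its Ull2-5 values were 4.44, 4.66 and 4.54 dry against 5.37, 6.03 and 5.44 wet. WRKY38 in Eden-1 read 5.77, 6.55 and 6.11 dry against 7.12, 7.61 and 8.12 wet, without overlap, a change of -1.47 ± 0.33 (limma adjusted p = 0.0433).

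Same-numbered dry and wet arrays had a correlation of deviations over 0.1 in all 3 pairs of Eden-1 and of Ull2-5. Over all 20 pairs it ran from -0.493 to 0.544, with a median of 0.105. With such pairs as a replicate block, WRKY38 in Eden-1 (limma adjusted p = 0.115) and WRKY17 in Tamm-2 (0.0752) ended, while WRKY6 in Tamm-2 (0.0316) and in Ull2-5 (0.0332) and WRKY57 in Ull2-5 (0.0487) held. All 5 of these calls ended when some array was left out. WRKY57 in Ull2-5 ended without its wet replicate 2 (limma adjusted p = 0.141), dry replicate 3 (0.0948) or dry replicate 2 (0.0562). WRKY6 in Ull2-5 ended without its wet replicate 2 (0.174) or any of its dry arrays (0.0568, 0.0744 and 0.0809), and WRKY6 in Tamm-2 without wet replicate 1 (0.248), wet replicate 2 (0.067), dry replicate 2 (0.0508) or dry replicate 3 (0.142), the last an array of low quality weight. WRKY17 in Tamm-2 ended without any of 30 arrays (up to 0.394) and moved to -0.38 without Tamm-2 wet replicate 1. WRKY38 in Eden-1 ended without any of 22 arrays (up to 0.31, without Eden-1 wet replicate 3).

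The balance of the family differed in size between accessions as a description. In Ull2-5, 45 of 52 members were lower on dry arrays, with a median change of -0.28, and in Omo2-3 41 were lower, with a median of -0.13. Tamm-2 had 36 (-0.13), Got-22 33 (-0.07), Bil-5 32 (-0.06), and Eden-1 and Ag-0 had 26 each (0.00 and 0.01). Medians of all loci lay between -0.01 and 0.02 in every accession. A test of whether the 7 drying changes of a member were equal called 0 of 52 members by limma, and 0.0284% of all loci. Unadjusted p-values under 0.05 were given by 2 members, WRKY57 (0.000811, adjusted 0.286) and WRKY26 (0.0203, adjusted 0.705).

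**Figure D3:**
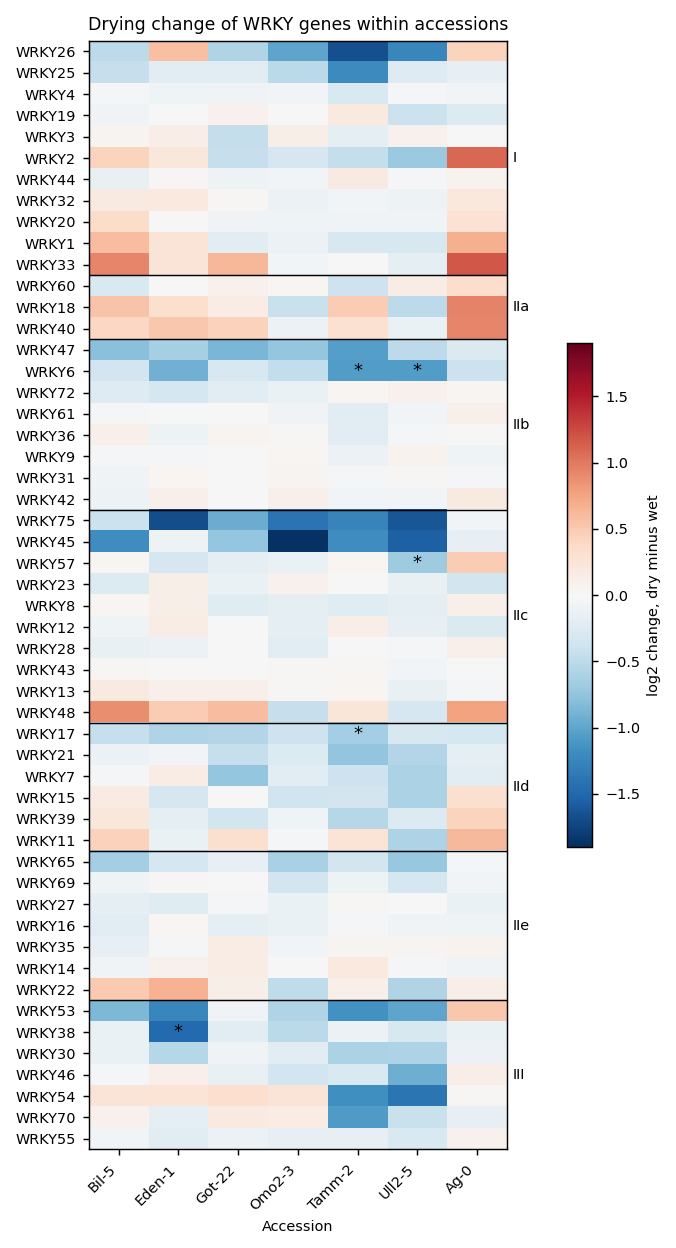
Drying change (log2 signal, dry minus wet) of each measured WRKY gene in each of the 7 accessions, ordered by subgroup. Asterisks mark the 5 changes past limma's test within an accession; in Ull2-5 45 of 52 members were lower when dry (blue), in Ag-0 and Eden-1 26.

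Accessions differed at 17 of 52 members (32.7%) over both water levels, close to the 31.4% of all loci called by the same limma F test. Eden-1 had the highest mean at 11 of these 17 (64.7%), namely WRKY1, WRKY6, WRKY30, WRKY36, WRKY38, WRKY45, WRKY48, WRKY54, WRKY60, WRKY70 and WRKY75, whereas it was highest at 28.7% of all loci called. Bil-5 was lowest at 5 of 17 (29.4%), against 11.3% of all loci called. Without Eden-1 the test called 5 members and 20.1% of loci, and on wet arrays alone it called 10 members and 14.7% of loci. With array quality weights it called 28 members and 47.9% of loci. Sequence variants under a probe weaken its signal, so in a comparison of accessions a weakly hybridising allele and a weakly expressed one cannot be told apart.

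WRKY38, a subgroup III factor induced by salicylic acid that dampens basal defence, had the smallest p of the family (limma adjusted p = 4.16e-10). Eden-1 arrays ranged from 5.77 through a median of 6.83 to 8.12, and the 35 arrays of the other accessions from 3.78 through 4.17 to 6.07. The single reading of 6.07 came from Omo2-3 wet replicate 2, the other wet Omo2-3 arrays reading 4.24 and 4.39. Accession means ran from 3.99 in Tamm-2 to 4.64 in Omo2-3 and then 6.88 in Eden-1. Without Eden-1 the call ended (limma adjusted p = 0.142).

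Eden-1 also led at WRKY54 and WRKY70, paralogues that act as salicylic acid dependent regulators of defence and senescence. WRKY54 lay between 9.99 and 10.44 on the 6 Eden-1 arrays, above every one of the 35 others, which ran from 4.96 through 8.58 to 9.90 (limma adjusted p = 0.00438). Bil-5 was lowest and most scattered, with 9.17, 8.58 and 4.96 on dry and 7.90, 5.75 and 8.32 on wet arrays; the readings of 4.96 and 5.75 came from its arrays of low quality weight. Without the 3 arrays of low weight the test still called WRKY54 (limma adjusted p = 0.00106). WRKY70 ranged from 10.53 through 10.90 to 11.16 in Eden-1 and from 8.20 through 10.22 to 11.01 elsewhere (limma adjusted p = 0.00325), with overlap. Without Eden-1 neither passed (limma adjusted p = 0.188 for WRKY54 and 0.0509 for WRKY70). WRKY53 and WRKY46 of the same subgroup did not pass this test (limma adjusted p = 0.0831 and 0.122).

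WRKY75 had an accession mean of 6.98 in Eden-1, and the other 6 lay between 4.55 (Bil-5) and 5.74 (Ull2-5). Its Eden-1 wet arrays read 6.95, 7.93 and 8.59, its dry arrays 6.48, 6.99 and 4.94. WRKY45 averaged 7.05 in Eden-1 and between 5.34 and 5.99 elsewhere, and WRKY30 4.91 against 4.09 to 4.66. Limma's adjusted p was 0.000669 for WRKY75, 0.00698 for WRKY45 and 0.00273 for WRKY30. Without Eden-1 the calls of WRKY75 (0.246) and WRKY45 (0.564) ended, while WRKY30 held without any single accession or array. The WRKY45 call also ended on wet arrays alone (limma adjusted p = 0.542). Its wet Eden-1 arrays read 6.26, 7.25 and 7.77, within the range of other wet arrays, which reached 7.97 in Omo2-3. Its dry Eden-1 arrays read 6.95, 7.52 and 6.53, above all other dry arrays, which reached 5.92 in Ag-0. Dry arrays alone were not tested.

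WRKY19 (AT4G12020) and WRKY3 had the opposite pattern, with the lowest mean in Eden-1. WRKY19, which encodes an unusual fusion of an immune receptor, WRKY domains and a kinase domain, was high in 2 accessions. Ag-0 arrays ranged from 5.32 through 6.05 to 6.85 and Ull2-5 arrays from 5.45 through 5.62 to 6.80, while arrays of the other 5 accessions lay at or below 5.09, so the groups did not overlap (limma adjusted p = 1.06e-06). This call held without any single array or accession. WRKY3 averaged 5.71 in Eden-1 and between 6.00 and 6.46 elsewhere (limma adjusted p = 0.000262), and its call ended without Eden-1 (0.0779). WRKY16 (AT5G45050), which also joins an immune receptor to a WRKY domain, was lowest in Ag-0 at 6.39 and lay between 6.56 and 6.82 elsewhere (limma adjusted p = 0.012, and 0.171 without Ag-0).

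**Figure D4:**
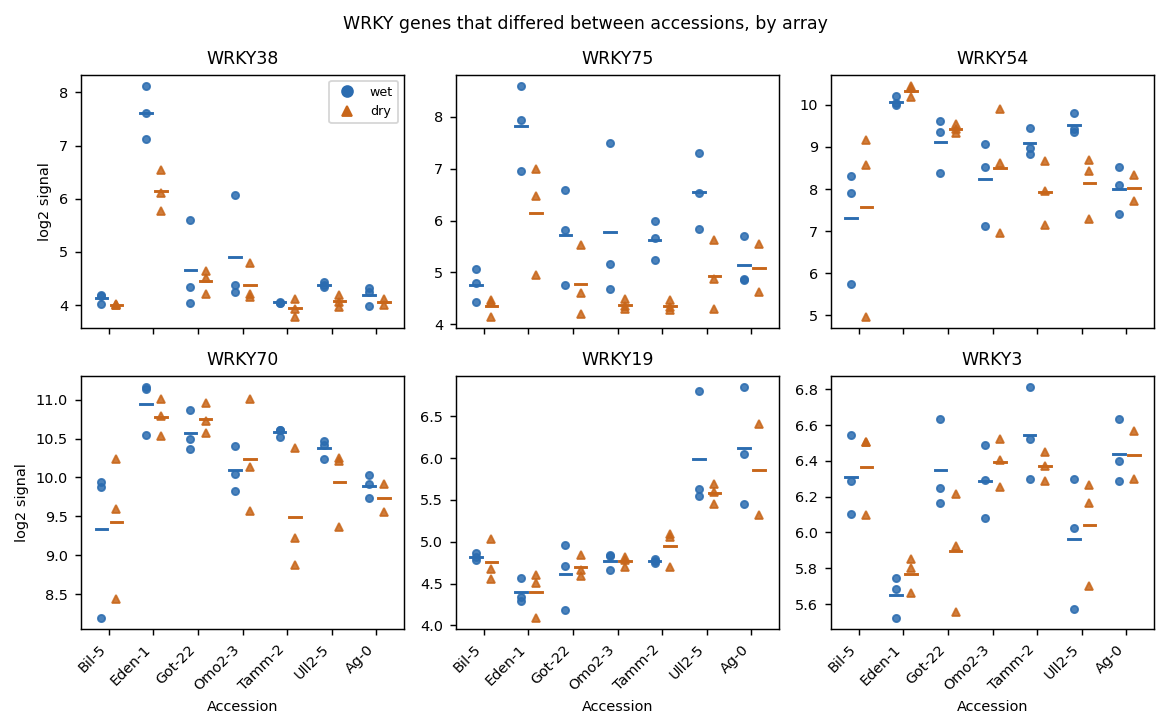
Log2 signal on each array, by accession and soil water (blue circles wet, orange triangles dry, bars group means), for 6 WRKY genes called by the accession test. Eden-1 is highest at WRKY38, WRKY75, WRKY54 and WRKY70 and lowest at WRKY19 and WRKY3; Ull2-5 and Ag-0 are high at WRKY19.

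Of the 17 accession calls, 12 held without any single array and 2, WRKY19 and WRKY30, also without any single accession. Here too the matching share of all called loci is not given. Of the calls not described above, WRKY57 and WRKY65 were highest in Ull2-5, at 5.34 and 5.31, and WRKY26 ran from 5.67 in Got-22 to 6.99 in Ull2-5. WRKY48 ran from 5.67 in Tamm-2 to 7.02 in Eden-1 and WRKY1 from 6.65 in Omo2-3 to 7.58 in Eden-1. WRKY6, WRKY60 and WRKY36 spanned 0.70, 0.49 and 0.16 between their highest and lowest accession. Single arrays ended the calls of WRKY26 (29 arrays, limma adjusted p up to 0.127, without Got-22 wet replicate 2), WRKY36 (8 arrays, up to 0.0645, without Omo2-3 wet replicate 1) and WRKY60 (0.11, 0.0852, 0.121 and 0.141 without Eden-1 dry replicate 1, wet replicate 2, dry replicate 3 and wet replicate 3). Removing Eden-1 ended WRKY1 (limma adjusted p = 0.0852), WRKY6 (0.339), WRKY26 (0.07), WRKY36 (0.0539), WRKY48 (0.0976) and WRKY60 (0.893), and removing Ull2-5 ended WRKY57 (0.0821), WRKY65 (0.128), WRKY26 (0.165), WRKY36 (0.0615) and WRKY60 (0.0543). Other removals that ended a call were Omo2-3 for WRKY1 (0.218), WRKY26 (0.0542) and WRKY36 (0.123), Tamm-2 for WRKY48 (0.0544) and WRKY36 (0.0507), Got-22 for WRKY65 (0.132), WRKY26 (0.349) and WRKY60 (0.0542), and Bil-5 for WRKY36 (0.0921). WRKY65 ended without Ull2-5 dry replicate 2 (0.0553) or wet replicate 2 (0.0543), and WRKY6 without Eden-1 dry replicate 2 (0.0644). On wet arrays alone WRKY1 (limma adjusted p = 0.0553), WRKY6 (0.11), WRKY16 (0.143) and WRKY36 (0.0656) ended. So did WRKY45 (0.542), WRKY48 (0.283), WRKY60 (0.179) and WRKY65 (0.181) on those arrays. WRKY36 ended with arrays centred on their median (0.163) and WRKY26 under quantile normalization (0.05003). No member of subgroup IId was called among 6, beside 31.4% of all loci, and subgroups were not compared by a test.

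Some WRKY genes varied widely between replicate arrays of a group. The median standard deviation within groups was 0.25 for the members and 0.19 for all loci, with 32 members above and 20 below the latter. Above the 90th percentile of all loci lay 14 of 52 members, led by WRKY54 (0.96), WRKY75 (0.73), WRKY53 (0.65) and WRKY45 (0.64). WRKY40 and several other members shared this scatter array by array. In the 13 groups of 3 arrays, the array with the highest WRKY40 was also the highest for WRKY33 in 11, for WRKY15 in 11, for WRKY46 in 10 and for WRKY18 in 9. The array with the lowest WRKY40 was also the lowest for WRKY18 in 13, for WRKY46 in 12, for WRKY33 in 9 and for WRKY15 in 8. Over all loci the median was 4 for shared highest and 4 for shared lowest arrays, 0.458% of loci reached 10 shared highest and 0.137% reached 12 shared lowest arrays. WRKY22 also shared its highest array with WRKY40 in 9 groups, and WRKY48 and WRKY2 shared their lowest in 11 and 9. By contrast WRKY45 shared its highest array with WRKY40 in 2 groups and WRKY75 in 5. The median over all members other than WRKY40 was 5 for shared highest arrays. These counts describe the arrays, and these genes were picked after their values were seen.

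**Figure D5:**
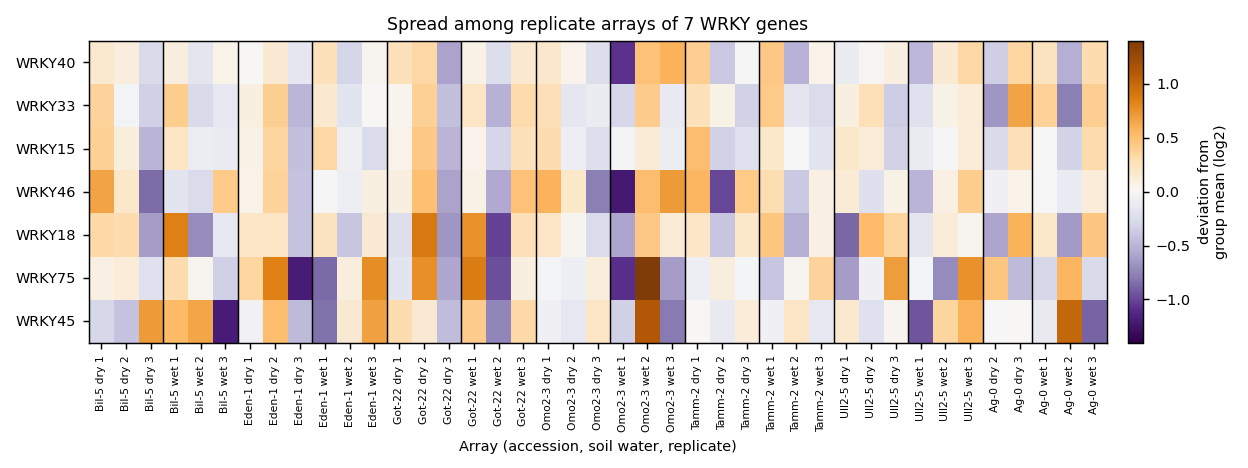
Deviation of each array from its group mean (log2 signal) for 7 WRKY genes; columns are arrays ordered by accession, soil water and replicate, and black lines separate groups. WRKY40, WRKY33, WRKY15, WRKY46 and WRKY18 deviate largely together, for example all low on Got-22 dry replicate 3, while WRKY75 and WRKY45 follow other patterns on many arrays.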

How the data were processed

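The table holds, as the authors deposited it, a single log2 signal for every locus on each array; that the scale is log2 was read from the range of 3.35 to 14.30. The submitters' processing notes name RMA and MAS5, with neither roles nor versions. The genome build is not given in the sources used here, nor is any probe filter. Values were used as they stood, with no locus removed; 0 columns belonged to other samples. The number of arrays limits the precision.

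All loci and 41 arrays were fitted together in limma 3.58.1 under R 4.3.3, with 14 group means and moderated variances (27 residual degrees of freedom, 2.06 added by the prior), after the code was tested on simulated data. Drying was the mean over accessions of dry minus wet. Interaction and accession effects were tested by moderated F with 6 degrees of freedom in the numerator. Tests were two-sided, and Benjamini-Hochberg adjustment ran over all 21164 loci (threshold 0.05). The series calls the replicates biological; the labels give no batch. Whether replicate numbers pair arrays is not stated: 10 of 20 same-numbered dry and wet arrays had a correlation of deviations over 0.1, among them all 3 pairs of Eden-1 and of Ull2-5, both of Ag-0, 2 of 3 of Tamm-2, and 0 of Bil-5, Got-22 and Omo2-3. The main fit has no replicate block. All 57 members matched a RefSeq gene table (TAIR10.1), used for names and neighbours only. Every member could be named; members past a test were described, at most 25 per comparison, and listed kinases, partners and targets where they passed, at most 4 per list. Members and lists were chosen with earlier results of these data known. Alternatives were other normalizations, a filter on dim loci, other variance models, quality weights, replicate blocks, and leaving out arrays or accessions.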

Additional observations from a re-analysis of the deposited data

How the results depend on the processing

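No drying call named here, over all accessions or within one, reversed its direction. This does not cover differences that did not pass. The count of members that fell, 15, was between 13 and 15 under quantile normalization, median centring, removal of the lowest 25% of loci, a trended robust prior, quality weights, leaving out the 3 arrays of lowest quality weight, and either replicate block. The share of all loci that fell was between 11.1% and 15.2% under these. The count that rose, 1, was 2 with the lowest 25% of loci removed, without Omo2-3, without Ull2-5 or with the replicate block within accessions, 3 with quality weights, and 0 without Bil-5, Got-22 or Ag-0. Between 10.2% and 16.5% of all loci rose under those settings. Without a single array the count that rose was 0 to 2. The interaction count stayed at 0 under each alternative run, 0 to 0 without a single array. The accession count, 17, was 28 with quality weights (47.9% of all loci), 5 without Eden-1 (20.1%) and 10 on wet arrays alone (14.7%). It was 23 without the 3 arrays of lowest quality weight (42.3%) and 12 without Ull2-5 (27.2%). The other alternatives gave 16 to 20, beside 26% to 40% of all loci. Without a single array it was 14 to 22. Shares of all loci are not given for single-array ranges, so those ranges are not read as a trait of the members.

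Within accessions, quality weights gave 5 calls in Bil-5, 3 in Eden-1, 2 in Omo2-3 and 0 in Tamm-2, beside 9.27%, 1.7%, 2.81% and 0.175% of all loci. Tamm-2 also had 0 without the 3 arrays of lowest quality weight (0.345% of all loci). Eden-1 had 0 with the replicate block by number (0.354%). The replicate block within accessions was added for these counts after the data were seen. It gave 0 in Eden-1, 1 in Tamm-2 and 2 in Ull2-5, beside 0.208%, 1.22% and 1.16% of all loci. Fits on an accession's own arrays gave 0 in Eden-1, Tamm-2 and Ull2-5, beside 0%, 0.0142% and 0.132%. Without a single array the counts were 0 to 1 in Bil-5 and Eden-1, 0 to 7 in Tamm-2, 0 to 3 in Ull2-5 and 0 to 0 elsewhere. Shares of all loci are not given for these ranges, so they are not read as a trait of the members. The replicate block by number gave 16 drying calls, as without it, and that within accessions 15, beside 23.6% and 22.8% of all loci. The causes of these shifts were not tested. Signals near the array's low end limit what could be seen at 11 members, and WRKY30 lay just above that level.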
